A study of Mus musculus with 4 samples.

Results

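Protein tyrosine phosphatases are described here from RNA-seq of mouse B-cell acute lymphoblastic leukaemia (B-ALL) cells. The members were taken by gene symbol: the non-receptor Ptpn genes, the receptor Ptpr genes and the Ptp4a genes. The rule gave 36 of the 16613 symbols in the files, and 1 non-receptor symbol is left out by it. The cells were GFP+ bone marrow cells of recipient mice, which carried a leukaemia grown from B220+ donor marrow cells transduced with N-myc. The donor cells were Anp32b-/- (knockout, KO) with 2 libraries, or Anp32b+/+ (wild type, WT) with 2 libraries. Both genotypes are given as C57BL/6, and both carry the N-myc transduction, so neither group is free of the oncogene. The comparison asks which transcripts differ where the leukaemia lacks ANP32B, an acidic protein of the nucleus. The labels give no age or sex of the animals, no design of the knockout allele and no word on pooling.

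Phosphorylation of tyrosines is written by tyrosine kinases and removed by these phosphatases. In B cells the balance sets how strongly the B cell receptor and its precursor signal. The receptor phosphatase CD45 removes an inhibitory phosphate from Src family kinases and so primes them, whereas SHP-1 is recruited to inhibitory receptors and dampens the signal. B220, on which the donor cells were selected, is a form of CD45, so its gene Ptprc was used to choose the cells of both genotypes. Counts per gene do not separate its splice forms.

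Depth was alike, with 19581575 and 19605800 estimated reads in the KO libraries and 19692505 and 19758671 in the WT libraries. Levels are given as CPM, read counts divided by library size and each library's TMM normalisation factor. Anp32b was at 74.4 and 70.6 CPM in KO libraries, against 774 and 853 CPM in WT libraries, which matches the labels. The B lineage marker Cd79a was abundant in all 4 libraries (1871 and 1929 CPM in KO, 1914 and 1871 CPM in WT). Of 12 B lineage markers 7 were called lower and 0 higher. Dntt had 3.39 and 2.84 CPM in KO and 33.6 and 32.8 CPM in WT (log2 fold change -3.41). Rag1 had 11.1 and 10.4 CPM in KO and 37.5 and 35.0 CPM in WT (-1.75), and Ebf1 fell by less (-0.52). Markers of some other cell types, but not of all, differed between genotypes. All 13 neutrophil markers fell, with a summed level of 124 and 125 CPM in KO libraries, against 631 and 643 CPM in WT libraries. Of 10 tested monocyte and macrophage markers 3 fell (summed 50.5 and 50.2 CPM in KO, 108 and 102 CPM in WT). All 4 Y-linked genes, which mark male cells and not a cell type, also fell (summed 42.5 and 41.7 CPM in KO, 156 and 173 CPM in WT). The labels give no sex of donors or recipients, and the part of sex in the results below was not tested. T cell markers summed to 38.9 and 35.7 CPM in KO and 33.7 and 32.7 CPM in WT. Most of this was Thy1, with 36.4 and 32.7 CPM in KO and 28.3 and 26.6 CPM in WT. Cd4 had 1.13 and 1.03 CPM in KO and 3.76 and 2.87 CPM in WT, and Cd3e had 0 and 0 reads in KO and 2 and 4 reads in WT. The 7 stromal and endothelial markers in the files summed to 1.08 and 1.19 CPM in KO and 1.20 and 1.61 CPM in WT. Of 3 tested NK cell markers 2 fell, of 8 erythroid markers edgeR and DESeq2 called 0 (1 was higher at an unadjusted p under 0.05), and of 5 plasma cell markers 1 rose and 3 fell. The part of these cell types in the results below was not tested. Where marker values stand beside a gene, they describe the libraries only. In bulk RNA, fewer cells of a type and less RNA per cell cannot be told apart. The labels do not state whether the 2 libraries of a genotype are from separate animals, so each p-value covers the variation seen between these samples alone, which could be technical.

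Of the 36 phosphatase genes, 23 passed the filter on low counts, and each of these had at least 10 reads in all 4 libraries. A gene was called where edgeR's quasi-likelihood test gave an adjusted p under 0.05 over all 12123 tested genes. Of the 23, 9 were called (39.1%), against 23.6% of all tested genes. Higher in KO were 6 members (26.1%, against 10.9% of all genes): Ptprd, Ptpn22, Ptprj, Ptpn6, Ptprs and Ptpn1. Lower in KO were 3 members (13.0%, against 12.6% of all genes): Ptpn14, Ptp4a3 and Ptpn7. The median log2 fold change of the 23 was -0.00082, beside 0.0021 over all tested genes. The values of the KO libraries did not overlap those of the WT libraries for 16 members (69.6%), against 60.5% of all tested genes. The fold exceeded 2 for 3 called members, Ptprd, Ptpn22 and Ptpn14, where 5.2% of all tested genes were called at that size. Among the called members, Ptpn6, Ptpn14 and Ptprd share exonic bases with a gene annotated on the opposite strand (Gm20531, Gm26574 and B230208B08Rik), from which their reads cannot be told apart without a stated strand setting. The values of Ptpn22, Ptprd, Ptpn7 and Ptp4a3 carried decimals in all 4 libraries, so part of their reads was estimated.

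**Figure D1:**
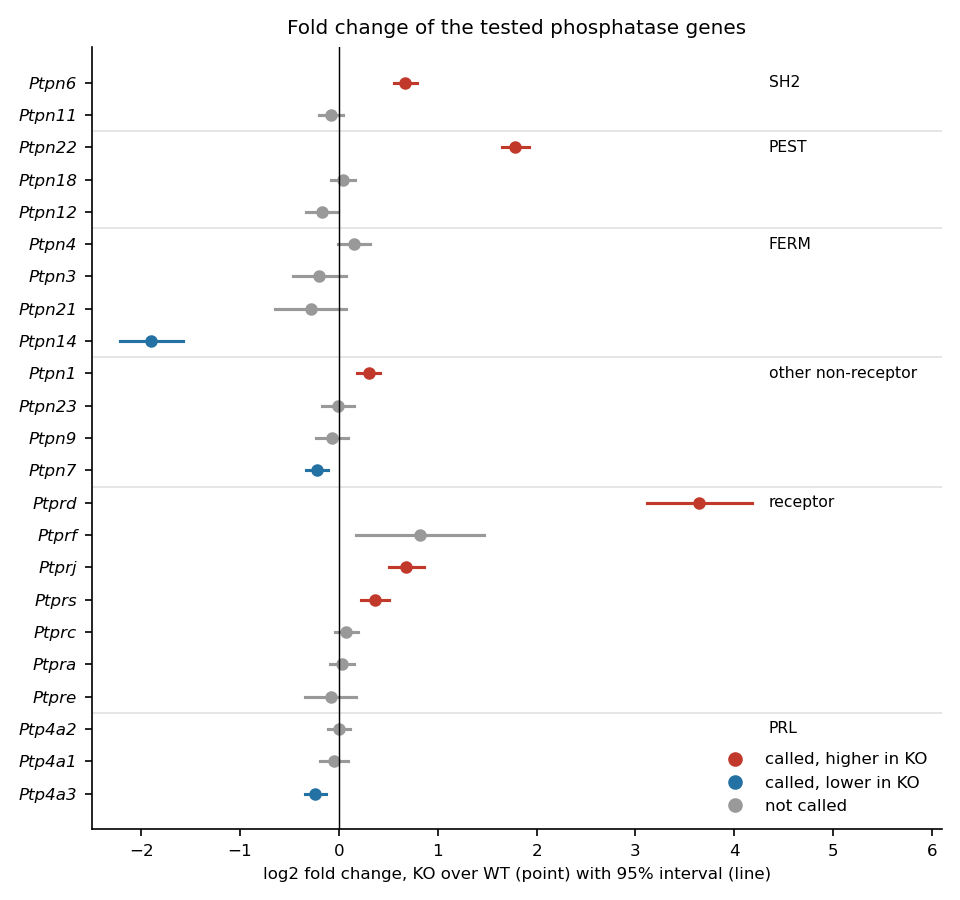
Log2 fold change, KO over WT, of the 23 tested phosphatase genes (points) with 95% intervals (lines), grouped by protein type from SH2 at the top to PRL at the bottom; colour gives the edgeR call. Ptprd at 3.65 and Ptpn22 at 1.79 lie far right, Ptpn14 at -1.90 far left, and most other members within a narrow band around 0.

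Promoters were read for 32 of the 36 members from a table of RefSeq promoters (GRCm38.p6), as the 300 bases from 250 before to 50 after the most upstream start in that table. This start can lie downstream of the annotated gene start, as for Ptpn22, Ptpn1 and Ptpn7. Promoters of Ptp4a3, Ptpn12, Ptprb and Ptprd were not analysed here. The 32 windows were searched on both strands for GAGGAA and for CACGTG, the canonical E-box of MYC family factors. GAGGAA is the core of ETS family sites with the leading GA of sites for PU.1, which the series title names. A window without GAGGAA can still hold the ETS core alone, which was not searched for. GAGGAA stood in 13 of the 32 windows, against 28.3% of 27025 gene promoters. Of the called members it stood in Ptpn22, Ptprj, Ptpn7 and Ptpn14, so in genes of both directions, and not in the windows of Ptpn6, Ptpn1 or Ptprs. CACGTG stood in 1 of the 32, against 7.24% of all promoters. That window, of Ptprs, holds it 3 times and holds no GAGGAA. Such a match describes letters and shows neither binding nor control. The windows of Ptpn22 (chr3:103859545-103859844, plus strand), Ptprj (chr2:90580546-90580845, minus strand) and Ptpn14 (chr1:189728018-189728317, plus strand) are shown with GAGGAA or its reverse complement in capitals, since they are the called members of larger fold that hold it. The window of Ptprs (chr17:56476431-56476730, minus strand) is shown with CACGTG in capitals, as the only member that holds it.
Ptpn22: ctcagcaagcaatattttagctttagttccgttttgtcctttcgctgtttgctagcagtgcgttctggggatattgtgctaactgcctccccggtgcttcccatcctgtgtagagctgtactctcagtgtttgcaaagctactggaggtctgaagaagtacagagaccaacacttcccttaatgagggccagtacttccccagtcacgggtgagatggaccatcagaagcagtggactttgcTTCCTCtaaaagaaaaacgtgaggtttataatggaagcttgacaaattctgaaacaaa
Ptprj: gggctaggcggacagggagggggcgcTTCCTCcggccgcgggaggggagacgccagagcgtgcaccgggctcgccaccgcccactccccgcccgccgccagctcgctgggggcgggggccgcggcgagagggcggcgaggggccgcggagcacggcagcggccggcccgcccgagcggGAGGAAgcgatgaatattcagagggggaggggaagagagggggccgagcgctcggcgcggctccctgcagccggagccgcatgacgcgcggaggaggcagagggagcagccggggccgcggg
Ptpn14: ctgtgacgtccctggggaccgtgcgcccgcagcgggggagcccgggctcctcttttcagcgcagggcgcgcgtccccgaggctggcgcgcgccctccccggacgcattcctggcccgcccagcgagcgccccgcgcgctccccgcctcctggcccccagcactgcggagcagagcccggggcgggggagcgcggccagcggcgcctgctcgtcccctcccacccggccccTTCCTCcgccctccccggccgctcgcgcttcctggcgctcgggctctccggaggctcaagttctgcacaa
Ptprs: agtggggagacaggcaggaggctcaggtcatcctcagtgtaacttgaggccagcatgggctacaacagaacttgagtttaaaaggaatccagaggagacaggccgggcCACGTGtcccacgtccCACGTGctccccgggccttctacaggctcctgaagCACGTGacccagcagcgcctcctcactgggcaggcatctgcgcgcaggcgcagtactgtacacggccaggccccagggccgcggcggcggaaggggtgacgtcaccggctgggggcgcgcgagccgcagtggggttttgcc

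The SH2 domain phosphatases, which dock on phosphorylated receptors, differed in response. Ptpn6, which encodes SHP-1, had 145 and 144 CPM in KO libraries, against 88.9 and 92.1 CPM in WT libraries. The KO libraries lay close together and well above both WT libraries. It rose 1.60-fold (log2 fold change 0.67, standard error 0.05, 95% interval 0.56 to 0.79, adjusted p by edgeR = 3.81e-07). Ptpn6 lies on chromosome 6 at 124720707 to 124738709 (GRCm38). SHP-1 is also abundant in myeloid cells. All 13 neutrophil markers and 3 of 10 tested monocyte and macrophage markers fell in KO libraries. The part of these cells in the rise of Ptpn6 was not tested. Ptpn11, which encodes SHP-2, a phosphatase that mostly promotes RAS and ERK signalling, had 81.9 and 77.5 CPM in KO and 85.2 and 83.7 CPM in WT. Its log2 fold change was -0.08 (95% interval -0.21 to 0.04, adjusted p by edgeR = 0.327). The ratio of Ptpn6 reads to Ptpn11 reads within a library, which no normalisation can alter, was 1.77 and 1.86 in KO and 1.04 and 1.10 in WT.

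Among the phosphatases with a PEST region, only Ptpn22 was called. Ptpn22 encodes PEP, the mouse counterpart of human LYP, which acts with the kinase CSK to restrain Src family and Syk family kinases in lymphocytes. It had 118 and 123 CPM in KO libraries, against 36.0 and 33.9 CPM in WT libraries. The spread within each pair was small beside the gap between the genotypes. The rise was 3.45-fold (log2 fold change 1.79, standard error 0.06, 95% interval 1.65 to 1.92, adjusted p by edgeR = 8.22e-11), the second largest among the tested members. Ptpn22 is on chromosome 3 at 103856575 to 103912252. Ptpn12, which encodes PTP-PEST, a regulator of adhesion adaptors, had 27.1 and 29.7 CPM in KO and 32.1 and 31.9 CPM in WT (log2 fold change -0.17, 95% interval -0.33 to -0.0093, adjusted p by edgeR = 0.122). Ptpn18, another member of this group, had 74.6 and 75.9 CPM in KO and 73.2 and 73.0 CPM in WT (log2 fold change 0.04, adjusted p by edgeR = 0.656). There were 4.36 and 4.13 reads of Ptpn22 per read of Ptpn12 in KO libraries, against 1.12 and 1.06 in WT libraries. T cells also express Ptpn22, and of their 3 tested markers Thy1 rose (36.4 and 32.7 CPM in KO, 28.3 and 26.6 CPM in WT, log2 fold change 0.33, adjusted p by edgeR = 0.00676), Cd4 fell (1.13 and 1.03 CPM in KO, 3.76 and 2.87 CPM in WT) and Cd8a was not called. Cd3e, Cd3d and Cd3g had at most 3 reads in a KO library and 7 reads in a WT library. The part of T cells in the rise of Ptpn22 was not tested.

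**Figure D2:**
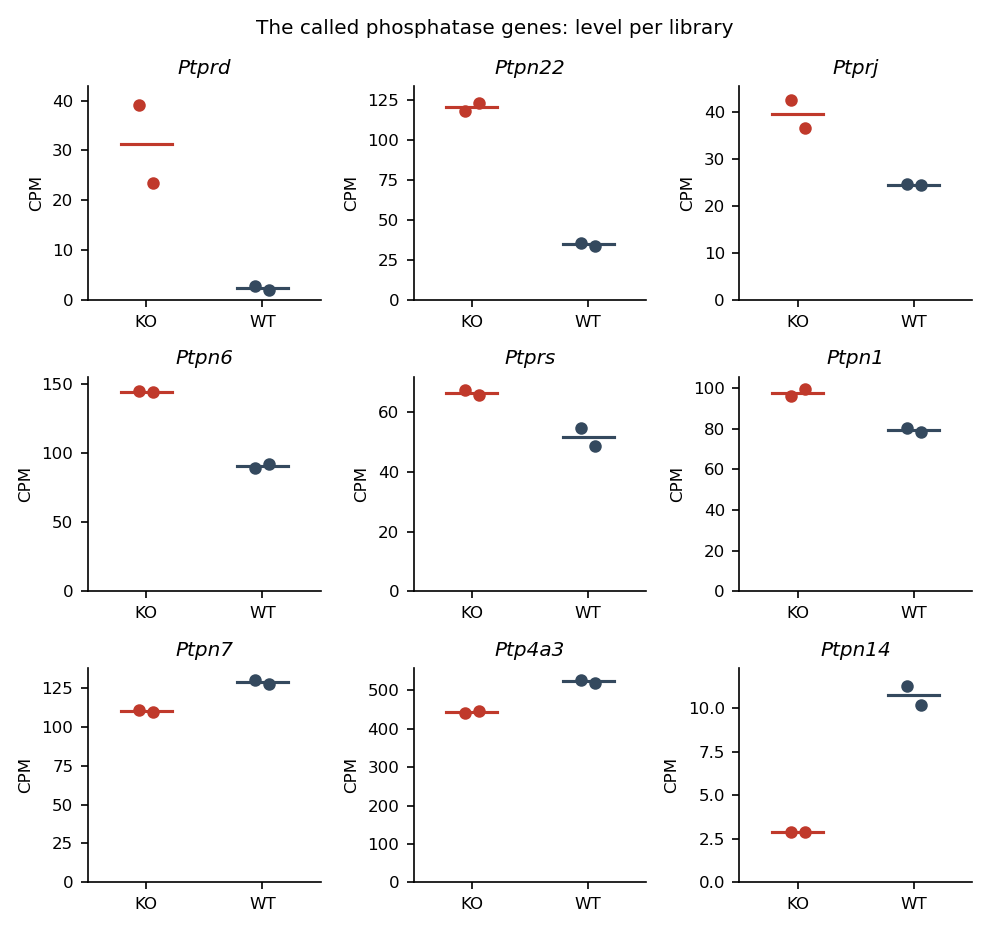
Level in CPM of the 9 called phosphatase genes, 1 point per library (KO left in red, WT right in dark blue) with the mean of each pair as a bar; each panel's axis starts at 0. The 2 KO points of Ptprd, at 39.0 and 23.5 CPM, lie far apart. In all 9 panels, that of Ptprd included, the points of a pair lie closer together than the genotypes do.

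The phosphatases with a FERM domain, which bind the membrane and the cytoskeleton, were among the lower members per kilobase of the longest transcript. By median transcript length Ptpn4 and Ptpn3 ranked higher, at 5 and 12 in WT. Of 4 tested, 1 fell and 0 rose, beside 12.6% lower and 10.9% higher over all tested genes. The count of 0 held also at an unadjusted p under 0.05 in edgeR and with DESeq2. Ptpn14, whose product binds the transcriptional co-activator YAP, had 2.87 and 2.89 CPM in KO libraries, against 11.3 and 10.2 CPM in WT libraries. This was 56 and 56 reads in KO against 225 and 202 reads in WT. It was 3.72-fold lower (log2 fold change -1.90, standard error 0.15, 95% interval -2.21 to -1.58, adjusted p by edgeR = 3.66e-07). Ptpn14 is on chromosome 1 at 189728216 to 189876695. Neutrophil and Y-linked genes fell in the same KO libraries, and the part of cell make-up or of sex in the fall of Ptpn14 was not tested. Its closest relative Ptpn21 had 4.36 and 3.77 CPM in KO and 4.87 and 5.04 CPM in WT (log2 fold change -0.28, 95% interval -0.65 to 0.08, adjusted p by edgeR = 0.254). The ratio of Ptpn14 reads to Ptpn21 reads was 0.659 and 0.767 in KO and 2.32 and 2.02 in WT. Ptpn3 and Ptpn4, which carry a PDZ domain beside the FERM domain, were not called, with log2 fold changes of -0.20 (95% interval -0.47 to 0.08) and 0.15 (95% interval -0.01 to 0.31). The other FERM member, Ptpn13, had 1 read in KO and 2 reads in WT in all.

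The remaining non-receptor phosphatases held 2 small changes in opposite directions. Ptpn1 encodes PTP1B, which sits on the endoplasmic reticulum and dephosphorylates the insulin receptor and JAK2. It had 95.9 and 99.2 CPM in KO libraries, against 80.3 and 78.1 CPM in WT libraries, without overlap. It rose 1.23-fold (log2 fold change 0.30, standard error 0.06, adjusted p by edgeR = 0.00110). Ptpn7 encodes HePTP, a haematopoietic phosphatase of ERK and p38. It had 111 and 109 CPM in KO libraries, against 130 and 127 CPM in WT libraries, and was 1.17-fold lower (log2 fold change -0.22, standard error 0.05, adjusted p by edgeR = 0.00627). The call of Ptpn7 was lost without KO replicate 1 (adjusted p = 0.0912) and without KO replicate 2 (adjusted p = 0.105). Ptpn1 lies on chromosome 2 at 167930750 to 167979385 and Ptpn7 on chromosome 1 at 135131838 to 135145328. Ptpn9, linked to secretory vesicles, had 35.9 and 34.1 CPM in KO and 38.6 and 34.9 CPM in WT. Ptpn23, a scaffold of endosomal sorting, had 49.7 and 45.0 CPM in KO and 50.2 and 44.8 CPM in WT. Both genes overlapped between genotypes and neither was called (log2 fold change -0.07, 95% interval -0.23 to 0.09, and -0.0055, 95% interval -0.17 to 0.16).

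Of the 7 tested receptor phosphatases, 3 rose and 0 fell, beside 10.9% higher and 12.6% lower over all tested genes. The count of 0 held also at an unadjusted p under 0.05 in edgeR and with DESeq2. Ptprd, Ptprs and Ptprf make up the LAR family, known best as organisers of nerve synapses. Ptprd had 39.0 and 23.5 CPM in KO libraries, against 2.96 and 2.02 CPM in WT libraries, or 760 and 455 reads in KO against 59 and 40 reads in WT. Both KO libraries were far above both WT libraries, and the KO pair itself was far apart. The log2 fold change was 3.65 (standard error 0.25, 95% interval 3.12 to 4.18, adjusted p by edgeR = 8.41e-08), and it ran from 3.23 to 3.96 over the alternatives. Ptprd lies on chromosome 4 at 75941237 to 78211742. Ptprs had 67.3 and 65.5 CPM in KO libraries, against 54.5 and 48.6 CPM in WT libraries. Its window with the 3 E-boxes is shown above. It rose 1.29-fold (log2 fold change 0.37, standard error 0.07, adjusted p by edgeR = 0.00112), a call lost with no filter on low counts (adjusted p = 0.0522). Ptprs is on chromosome 17 at 56412426 to 56476561. Plasmacytoid dendritic cells also express Ptprs. Their 5 markers, added after seeing the data, summed to 1.18 and 2.32 CPM in KO and 5.62 and 4.08 CPM in WT. Of 4 tested, 2 were called lower, and the part of these cells in the level of Ptprs was not tested. Ptprf, which encodes LAR itself, had 34 and 42 reads in KO and 18 and 26 reads in WT. Its log2 fold change of 0.82 was not called (95% interval 0.17 to 1.47, adjusted p by edgeR = 0.0658), but the replicate block gave a call (adjusted p = 0.0451), as did the fit without WT replicate 2 (1.11, adjusted p = 0.0272). The reads of Ptprd per read of Ptprs were 0.580 and 0.359 in KO libraries and 0.0544 and 0.0415 in WT libraries.

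Of the receptor phosphatases that act on Src family kinases, Ptprj rose and Ptprc did not pass the test. Ptprj encodes CD148, which can take over part of the role of CD45 in mouse B cells. It had 42.4 and 36.5 CPM in KO libraries, against 24.7 and 24.5 CPM in WT libraries. The lower KO library was still clearly above both WT libraries. The rise was 1.61-fold (log2 fold change 0.68, standard error 0.08, 95% interval 0.51 to 0.86, adjusted p by edgeR = 2.89e-05). Ptprj is on chromosome 2 at 90429756 to 90580694. Ptprc, the CD45 gene, had 140 and 141 CPM in KO and 138 and 129 CPM in WT (log2 fold change 0.08, 95% interval -0.04 to 0.19, adjusted p by edgeR = 0.357). The ratio of Ptprj reads to Ptprc reads was 0.303 and 0.258 in KO and 0.179 and 0.190 in WT. Ptpra, which also removes the inhibitory phosphate of Src kinases, had 71.0 and 69.4 CPM in KO and 70.1 and 67.3 CPM in WT (log2 fold change 0.03, 95% interval -0.09 to 0.16). Ptpre, its close relative, had 10.5 and 9.86 CPM in KO and 9.74 and 11.8 CPM in WT (log2 fold change -0.08, 95% interval -0.34 to 0.18). Neither was called by edgeR (adjusted p = 0.749 and 0.680).

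**Figure D3:**
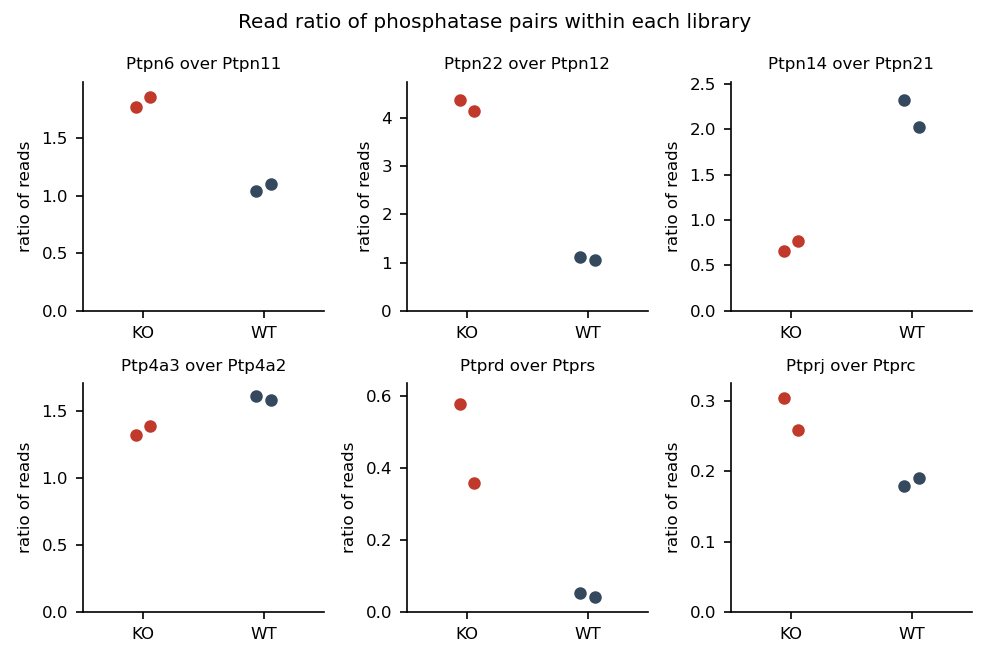
Ratio of reads between 6 pairs of phosphatase genes within each library (KO left in red, WT right in dark blue, 1 point per library, axes from 0). The genotypes do not overlap in any of the 6 panels, but the pairs were chosen with the values known. Each has a called gene without overlap as its numerator, so the panels are not evidence apart from the calls.

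The PRL phosphatases, small prenylated enzymes that bind magnesium transporters of the CNNM family, held the 2 members of highest level per kilobase of the longest transcript in both genotypes, though by median transcript length Ptpn6 lay above Ptp4a2 in KO libraries. Ptp4a3, which encodes PRL-3, had 440.5 and 446 CPM in KO libraries, against 527 and 519 CPM in WT libraries. It was 1.18-fold lower (log2 fold change -0.24, standard error 0.05, 95% interval -0.35 to -0.13, adjusted p by edgeR = 0.00289). This call was lost without KO replicate 1 (adjusted p = 0.113) and without KO replicate 2 (adjusted p = 0.0834). Ptp4a3 is on chromosome 15 at 73723145 to 73758766. Ptp4a2 had 333 and 320 CPM in KO and 326 and 327 CPM in WT and was not called (log2 fold change -0.00082, 95% interval -0.11 to 0.11). Ptp4a1 had 143 and 138 CPM in KO and 134 and 156 CPM in WT, and its WT libraries lay on both sides of the KO pair. Its log2 fold change of -0.05 was not called (adjusted p by edgeR = 0.643). Leaving out WT replicate 1 gave -0.16 and a call (adjusted p = 0.0158), and leaving out WT replicate 2 gave 0.06. The Ptp4a3 to Ptp4a2 ratio of reads was 1.32 and 1.39 in KO and 1.61 and 1.59 in WT.

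Levels of different genes were set side by side as CPM per kilobase of the longest protein-coding transcript. Ptp4a3 ranked 1 in both genotypes, with 124 and 126 CPM per kilobase in KO and 149 and 147 in WT, and Ptp4a2 ranked 2 with 91.4 and 87.7 in KO and 89.5 and 89.7 in WT. Ptpn6 ranked 3 in KO, at 62.7 and 62.4 CPM per kilobase, and 5 in WT, at 38.5 and 39.9. Ptpn22 ranked 5 in KO, at 43.1 and 44.8 CPM per kilobase, and 11 in WT, at 13.1 and 12.4. Ptprd ranked 17 in KO and 22 in WT, and Ptpn14 ranked 22 in KO and 20 in WT. By median transcript length, a choice added after seeing the data, Ptp4a3 and Ptp4a2 still ranked 1 and 2 in WT, while Ptpn4 went to rank 5 in place of 17, Ptprs to 7 in place of 15 and Ptpn3 to 12 in place of 19. In KO libraries by that length, Ptp4a3 averaged 224 CPM per kilobase, but Ptpn6, at 131, lay above Ptp4a2, at 92.9. Summed over all 36 members the level was 2075 and 2036 CPM in KO libraries, against 1957 and 1941 CPM in WT libraries. The receptor genes summed to 373 and 349 CPM in KO and 302 and 285 CPM in WT, and the PRL genes to 916 and 904 CPM in KO and 987 and 1003 CPM in WT.

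**Figure D4:**
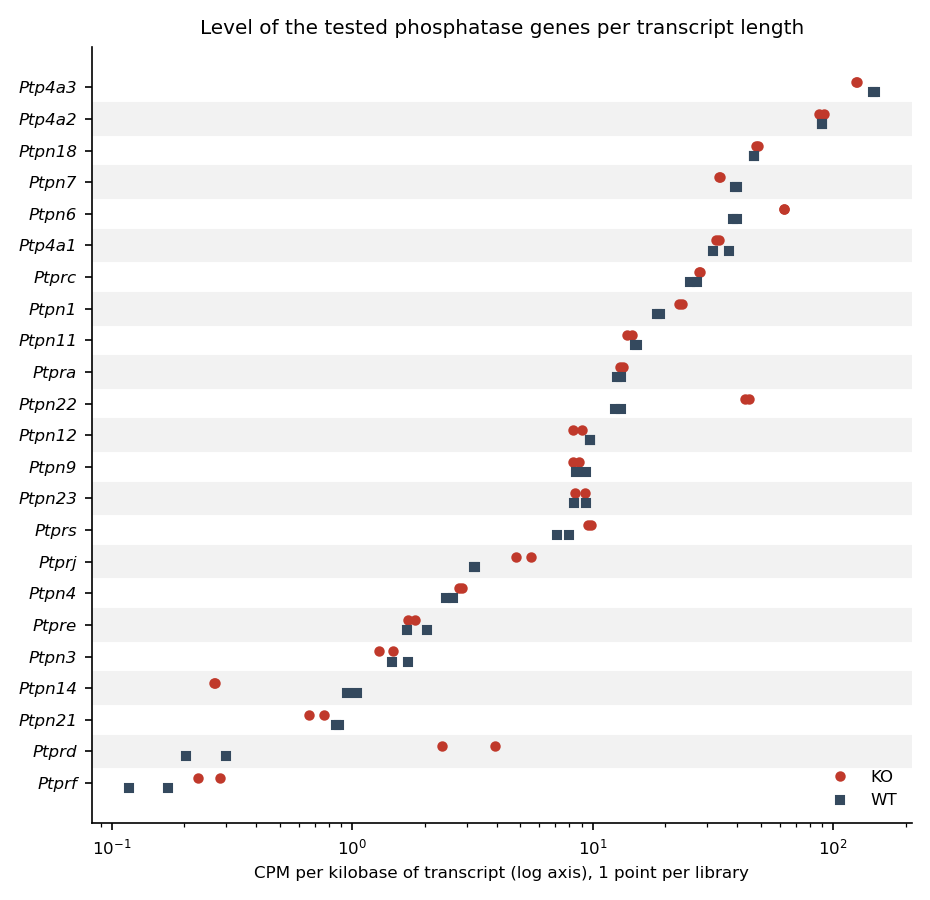
CPM per kilobase of transcript on a log axis for the 23 tested phosphatase genes, 1 point per library (KO circles in red above, WT squares in dark blue below), ordered by the WT mean. Ptp4a3 and Ptp4a2 stand at the top in both genotypes, and the KO points of Ptpn22 and Ptprd stand well right of their WT points.

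The 13 members below the filter had at most 8 reads in any library. Ptpru had 9 reads in KO and 9 in WT, Ptprm 10 and 8, Ptpro 8 and 7, and Ptprk 5 and 3. Ptprg had 1 read in each genotype. Ptprn, Ptprt and Ptprz1 had 1 read and Ptprr had 2 reads in KO, and these 4 had 0 in WT. Ptprn2 had 3 reads and Ptprb and Ptpn5 had 1 read in WT, and these 3 had 0 in KO. A count of 0 allows up to 3 reads, or 0.152 to 0.153 CPM on the library totals, for counting error only. No difference between genotypes was detectable for these genes at this depth. They include the endothelial Ptprb and the nervous system genes Ptprt and Ptprz1.

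Genes that work with the phosphatases were read from 5 lists, beside 10.9% higher and 12.6% lower over all tested genes. Of 25 kinases of the Src, Syk, TEC, JAK and related families, all tested, 2 rose and 6 fell (median log2 fold change -0.09). Fes fell to 6.01 and 5.37 CPM in KO, against 12.4 and 11.8 CPM in WT (log2 fold change -1.09, adjusted p by edgeR = 1.41e-05). Neutrophil markers fell in the same libraries, and their part in the fall of Fes was not tested. Jak1, a cytokine receptor kinase, fell by 0.24 on the log2 scale, but not past the threshold without KO replicate 1 (adjusted p = 0.123). The Src family kinases that dominate in B cells, named after their values were seen, were not called: Lyn had 109 and 104 CPM in KO and 104 and 105 CPM in WT, Blk 66.9 and 64.5 CPM in KO and 68.8 and 63.7 CPM in WT. Syk, named in the same way, fell, with 358 and 360 CPM in KO and 430 and 401 CPM in WT. Its log2 fold change was -0.21 (adjusted p by edgeR = 0.0110). Lck (-0.39) and Jak2 (-0.34), also named after their values were seen, were called lower, and Zap70 (0.53) was called higher. Csk, the partner kinase of PEP and likewise named after its value was seen, was at the threshold (log2 fold change 0.16, adjusted p by edgeR = 0.0497) and lost the call in 6 of 9 alternatives (adjusted p from 0.000507 to 0.408).

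Of 23 tested genes on a list of inhibitory receptors and adaptors around SHP-1, SHP-2 and the lipid phosphatases, 5 rose and 5 fell (median -0.05). Cd22, the inhibitory receptor on B cells that carries SHP-1 docking sites, had 107 and 104 CPM in KO, against 53.1 and 52.0 CPM in WT (log2 fold change 1.00, standard error 0.06, adjusted p by edgeR = 1.57e-08). Other receptors of the list, named after their values were seen, differed from it. Siglecg (log2 fold change -0.02), Cd72 (0.11) and Fcgr2b (-0.08) were not called, while Pirb (-0.98) fell. Fcrl1 (0.87) rose, and it is on the list though it is not an established inhibitory receptor. Inppl1, which encodes the lipid phosphatase SHIP2, had 52.9 and 48.7 CPM in KO and 85.2 and 81.9 CPM in WT (-0.72). Lilrb4a, an inhibitory receptor of myeloid cells, had 1.59 and 1.96 CPM in KO and 6.22 and 6.76 CPM in WT (-1.87). All 13 neutrophil markers fell in the same libraries, and the part of myeloid cells in the fall of Lilrb4a was not tested. Of 17 docking and RAS entry genes around SHP-2, 2 rose and 2 fell (median -0.03). Gab2, a docking protein of SHP-2, had 8.11 and 6.76 CPM in KO and 14.2 and 14.5 CPM in WT (-0.95), while Spry1, a feedback inhibitor of ERK signalling, rose by 0.52 on the log2 scale and Sos2, a RAS exchange factor, by 0.40.

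Among 25 tested phosphatases of the wider superfamily, CD45-associated protein included, 0 rose and 5 fell under edgeR (median -0.11). Ssh1, a slingshot phosphatase of cofilin, had 13.1 and 11.3 CPM in KO and 20.8 and 19.5 CPM in WT (-0.72). Of the Eyes absent genes, Eya3 was not called, at 79.6 and 83.4 CPM in KO and 85.2 and 84.0 CPM in WT (-0.05), and Eya4 had at most 1 read in any library. The other two were low and fell: Eya1 had 0.154 and 0.207 CPM in KO and 1.10 and 1.11 CPM in WT (-2.58), and Eya2 had 0.616 and 0.568 CPM in KO and 2.16 and 1.87 CPM in WT (-1.75). At an unadjusted p under 0.05, 3 genes of this list were higher in KO, and DESeq2 called 0 higher. Of 9 tested ligands and surface partners of receptor phosphatases, 2 rose and 2 fell (median 0.07). Lgals1, whose product galectin-1 binds CD45, had 264 and 262 CPM in KO, against 118 and 134 CPM in WT (log2 fold change 1.06, standard error 0.06). Sdc4, a heparan sulfate proteoglycan gene, had 56.2 and 52.9 CPM in KO and 102 and 106 CPM in WT (-0.93), and Lgals3, the galectin-3 gene, had 4.77 and 5.94 CPM in KO and 9.49 and 9.48 CPM in WT (-0.82).

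Across 9 alternative settings the 9 called phosphatase genes kept their direction, and Ptprd, Ptpn22, Ptprj, Ptpn6, Ptpn1 and Ptpn14 kept their call in each. The highest adjusted p among those 6 genes was 0.0453, for Ptpn1.

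**Figure D5:**
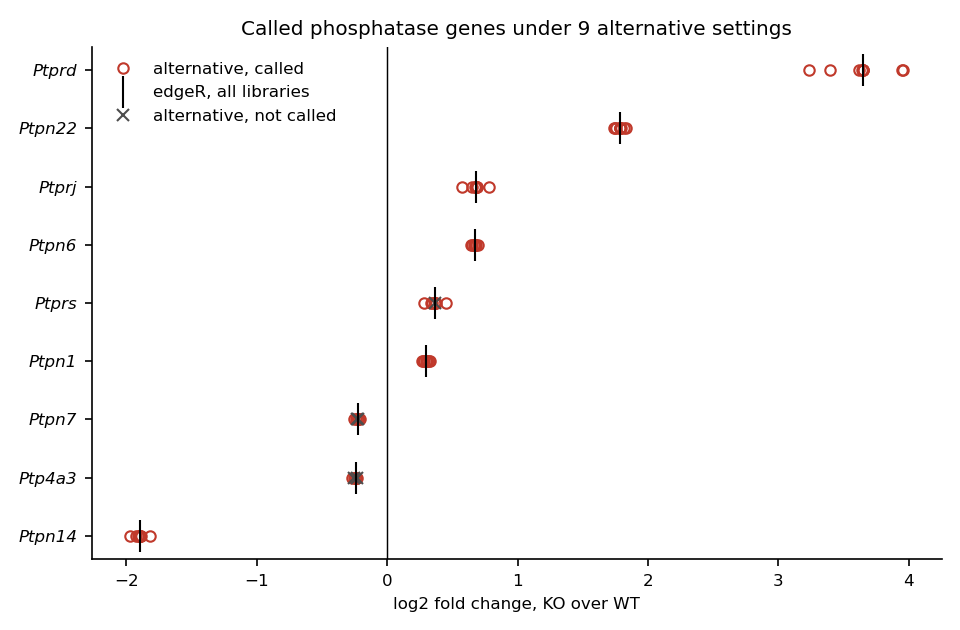
Log2 fold change, KO over WT, of the 9 called phosphatase genes with all libraries in edgeR (black bar) and under 9 alternative settings (red circles where called, grey crosses where not). Crosses appear only for Ptprs, Ptpn7 and Ptp4a3, and no point crosses 0.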

How the data were processed

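RNA-seq libraries numbered 4, 2 Anp32b-/- and 2 Anp32b+/+, grouped by the genotype in the labels. The deposited files hold estimated counts of reads per gene symbol (expected counts, with decimals), not normalised. GRCm38, HISAT2 2.0.4 and DESeq2 1.4.5 are named, per the submitters' processing notes; neither counting tool, annotation, strand setting nor filters are named there, so reads of an antisense or overlapping gene cannot be told apart. Of the members, 18 had whole values in all libraries. Counts were rounded and tested across all genes with edgeR 4.0.16 (R 4.3.3): quasi-likelihood, TMM, filterByExpr with a minimum count of 10, no covariate, Benjamini-Hochberg adjustment. Standard errors and 95% intervals come from that fit. With 2 against 2 libraries an exact permutation test of 1 gene was not run. The procedure was tested on simulated data. Coordinates and promoters are from RefSeq GRCm38.p6, transcript lengths from GENCODE M21 (same build). Protein sequences were not analysed here.

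Members, lists and alternatives (replicate block, DESeq2 1.42.0, RLE and upper-quartile normalization, no filter, each library left out) were chosen with earlier results of these data known. Named were all members with reads, Anp32b, and in each list the 3 called genes with the smallest p; others are marked, and 1 kinase is not reported here. Y-linked and plasmacytoid lists and the median length were added after seeing the data.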

Additional observations from a re-analysis of the deposited data

How the results depend on the processing

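Of the 9 called phosphatase genes, all kept their direction in the 9 alternatives. The count of higher members ran from 6 to 7 and of lower members from 1 to 4 when 1 library was left out; the count of 1 came without KO replicate 1 and without KO replicate 2, where Ptpn14 alone was called. Fits without a KO library estimate the spread from the WT pair alone and assume it for the single KO library; the chi-square over its degrees of freedom was 2.11 between KO libraries and 5.51 between WT libraries. Over all genes, the calls were 729 higher and 847 lower with DESeq2, 547 and 744 with no filter, and from 582 to 1680 higher and from 911 to 1775 lower with a library left out. The replicate block gave 7 higher and 3 lower members (Ptprf added) and 1644 and 1779 genes; same-numbered libraries hardly deviated together (correlation 0.035 over genes), so the numbers were not taken as pairs. Values that changed sign belonged to members that were not called: Ptp4a1 at 0.063 without WT replicate 2 (-0.16 without WT replicate 1); Ptp4a2 at 0.00048 with DESeq2 and with RLE, 0.0029 with no filter and 0.020 without KO replicate 2 (-0.030 without KO replicate 1); Ptpn23 at 0.080 without WT replicate 1 and 0.057 without KO replicate 2 (-0.088 without WT replicate 2); Ptpn9 at 0.0047 without WT replicate 1 (-0.14 without WT replicate 2); and Ptpre at 0.060 without WT replicate 2 (-0.21 without WT replicate 1). The cause was not tested. For the lists, the largest moves were in the kinases, of which 3 to 8 were called lower over the alternatives, and in the wider superfamily, of which 3 to 8 were called lower and 0 to 2 higher. Depth limits the 13 members with at most 8 reads per library and Ptprf, with 18 to 42.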
